A study of Homo sapiens with 3 samples.

Results

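The 3′ ends of 6 cyclin genes, CCND1, CCND2, CCNE1, CCNE2, CCNA2 and CCNB1, were counted in new and in steady-state RNA of HEK293T, a cell line derived from human embryonic kidney. The genes were chosen by name, and their counts were taken from fixed windows on the gene's strand in hg19 coordinates. The windows were chr11:69455700-69469700 (plus) for CCND1, chr12:4382700-4415000 (plus) for CCND2, chr19:30302700-30315700 (plus) for CCNE1, chr8:95891800-95907600 (minus) for CCNE2, chr4:122737300-122745300 (minus) for CCNA2 and chr5:68462700-68474500 (plus) for CCNB1. Within the windows, positions were merged into sites around local maxima (within 24 nt). The windows held 22 sites with at least 20 counts over the 3 libraries, of 779809 merged nuclear sites in all. All 6 genes had counts in every library. Of their sites, 9 had a mean of at least 10 CPM (counts scaled to the nuclear total of the library), among 10843 such sites in the whole data set.

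The assay, 2P-seq, sequences the place where a transcript meets its poly(A) tail, so that each read marks a 3′ end, and a gene's count does not grow with its length. RNA made while 4-thiouridine (4sU) is in the medium can be captured through the analogue, which enriches newly made molecules (4sU-2P-seq). The libraries were RNA captured after 60 min of 4sU, RNA captured after 30 min of 4sU, and the input of the 30 min labelling, which stands for steady-state RNA. The labels give 1000 mM 4sU for the incubations, and the treatment field of the input reads none although its title names the labelling. Each group had 1 library, so the differences below have no replicate check, no p-value is given, and the 95% intervals cover counting error only. PCR copies of a molecule cannot be recognised in these counts.

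Cyclins are the regulatory subunits of cyclin-dependent kinases (CDKs), and each class is made and destroyed in its own part of the cell cycle. D-type cyclins pair with CDK4 and CDK6 in early G1 and carry growth signals to the retinoblastoma protein. E-type cyclins pair with CDK2 at entry into S phase. Cyclin A2 acts with CDK2 and CDK1 through S phase and G2, and cyclin B1 acts with CDK1 at entry into mitosis. The paralogues CCND1 and CCND2 encode D-type cyclins, and CCNE1 and CCNE2 encode E-type cyclins.

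Nuclear counts, which set the scale, numbered 6151986 in 60 min 4sU RNA, 9652023 in 30 min 4sU RNA and 32768468 in input. Mitochondrial counts were kept apart, at 31.1%, 31.8% and 7.46% of each library in the same order. The sources used here do not name the build of the deposited positions. Counts on chromosome 1 reached position 249223263, and in each window the most abundant site lay between 300 and 977 nt from the downstream edge. No annotation of this build was used, so exons, introns and untranslated regions were not assigned. Markers of HEK293T cells and other cell cycle genes were for the same reason not analysed here.

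RefSeq promoter sequences (GRCh38.p14, 250 bases before to 50 after the start) were matched for 3 of the 6 genes, CCNE1, CCNA2 and CCNB1. CCNE2 was left out of the matching, and CCND1 and CCND2 had no entry. The 3 promoters are shown because they were the ones matched, not for their ratios. CCNA2 and CCNB1 had near-equal ratios of new RNA to input at 30 min while CCNE1 lay above both (values below). A link between motifs and ratios was not tested. The promoters lie at chr19:29811741-29812040 on the plus strand, chr4:121823834-121824133 on the minus strand and chr5:69166900-69167199 on the plus strand, given here in that order. Capitals mark matches, on either strand, to the CCAAT box, to TCCCGC (the core of an E2F-type site) and to TTTGAA or TTTAAA (forms of the cell cycle homology region, CHR).
CCNE1: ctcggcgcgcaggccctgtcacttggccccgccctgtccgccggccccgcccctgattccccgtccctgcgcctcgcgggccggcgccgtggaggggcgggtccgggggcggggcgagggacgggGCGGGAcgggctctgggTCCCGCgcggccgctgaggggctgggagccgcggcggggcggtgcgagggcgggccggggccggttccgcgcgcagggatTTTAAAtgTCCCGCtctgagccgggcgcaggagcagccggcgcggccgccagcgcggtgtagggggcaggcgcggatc
CCNA2: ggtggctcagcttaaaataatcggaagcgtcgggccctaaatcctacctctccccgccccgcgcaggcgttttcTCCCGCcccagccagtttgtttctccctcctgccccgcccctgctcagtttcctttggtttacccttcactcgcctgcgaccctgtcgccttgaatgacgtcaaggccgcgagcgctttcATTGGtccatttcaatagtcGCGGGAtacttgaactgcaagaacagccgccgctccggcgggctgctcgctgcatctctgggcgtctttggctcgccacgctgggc
CCNB1: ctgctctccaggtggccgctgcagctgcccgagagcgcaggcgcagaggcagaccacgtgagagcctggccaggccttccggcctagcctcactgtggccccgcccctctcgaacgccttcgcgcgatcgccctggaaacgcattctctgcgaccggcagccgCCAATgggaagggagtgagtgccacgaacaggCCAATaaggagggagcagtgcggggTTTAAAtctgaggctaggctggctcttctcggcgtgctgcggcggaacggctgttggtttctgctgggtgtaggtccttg

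CCAAT, a motif bound by the factor NF-Y, matched 2 times in the CCNB1 promoter, 1 time in that of CCNA2 and 0 times in that of CCNE1. It was present in 34.6% of the 35116 promoters of this length in the table. TCCCGC matched 3 times in the CCNE1 promoter, 2 times in that of CCNA2 and 0 times in that of CCNB1, against 26.9% of all promoters with a match. TTTGAA or TTTAAA matched 1 time each in CCNE1 and CCNB1 and 0 times in CCNA2, against 8424 of the 35116 promoters. Other forms of the CHR were not searched, so these matches do not show which promoters have or lack a CHR. The longer E2F-type motif TTTNNCGC matched none of the 3 promoters and 6.89% of all. Every promoter also held GGGCGG, the GC box, with 7 matches in CCNE1, 3 in CCNA2 and 1 in CCNB1, as did 45.0% of all promoters. Matches of different motifs could overlap, and a match is a description of the letters only.

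The D-type cyclins were more than 2-fold higher in new RNA than in input at both labelling times, the E-type cyclins were higher at 30 min only by less than 2-fold, and CCNA2 and CCNB1 were close to the input at 30 min and below it at 60 min. By the rule used for a call, a ratio of at least 2-fold whose interval excluded 1, 2 of the 6 genes were higher in 30 min 4sU RNA than in input and 0 lower. Over all 10843 sites the same rule called 35.3% higher and 17.1% lower, so the share of called cyclins is near the background. Here whole genes, summed without a filter, are set against single sites with a mean of at least 10 CPM. Single cyclin sites are given below. At 60 min 2 genes were again higher than in input and 0 lower, against 27.3% and 21.8% of all sites. The median log2 ratio of the 6 genes was 0.78 at 30 min and -0.12 at 60 min, beside 0.37 and 0.06 for all sites. Both comparisons share the input library. The 4sU libraries also skipped the first poly(A) selection, per the labels, and the part of this step in the ratios was not tested. Median-of-ratios scaling would move all log2 ratios to input by -0.37 at 30 min and -0.07 at 60 min, TMM by -0.36 and -0.10, and a total with mitochondrial counts by -0.44 and -0.43. With that last total, 0 genes were called higher and 1 lower at 60 min, with CCND1 at 1.95 and CCND2 at 1.71.

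**Figure D1:**
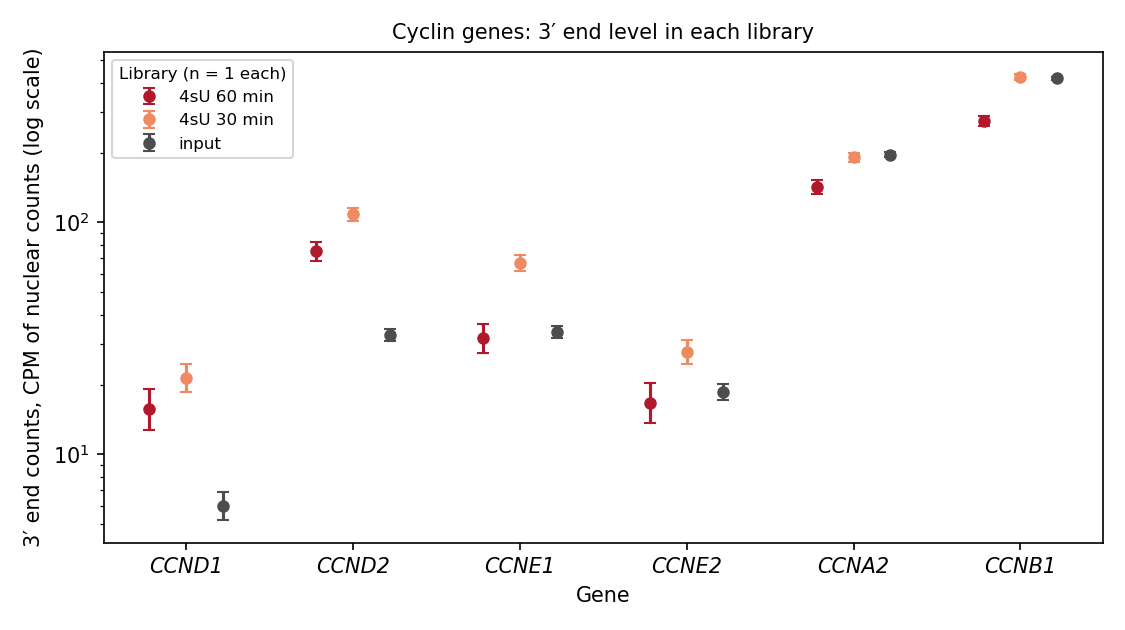
CPM of nuclear counts (log scale) for each cyclin gene in 60 min 4sU RNA, 4sU 30 min and input, with exact Poisson 95% intervals of 1 library each. CCND1 and CCND2 lie above the input in both 4sU libraries, while CCNA2 and CCNB1 are lowest at 60 min.

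CCND1, the most studied D-type cyclin and a target of growth factor signalling, had 97 counts (15.8 CPM) in 60 min 4sU RNA, 207 counts (21.4 CPM) in 30 min 4sU RNA and 197 counts (6.01 CPM) in input. Both 4sU libraries thus lay above the input, and their intervals did not overlap that of the input. The ratio to input was 2.62 at 60 min (2.04 to 3.36) and 3.57 at 30 min (2.92 to 4.36). Among all sites, 79.6% had a lower ratio at 30 min. CCND1 had the fewest counts of the 6 in all libraries, and its depth limits what can be said of its single ends.

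CCND2, the second D-type cyclin, was more abundant than CCND1 in each library, with 462 counts (75.1 CPM) in 60 min 4sU RNA, 1045 (108.3 CPM) in 30 min 4sU RNA and 1072 (32.7 CPM) in input. Its ratio to input was 2.30 at 60 min (2.05 to 2.56) and 3.31 at 30 min (3.04 to 3.61). The D-type paralogues could not be told apart in this respect. The ratio of CCND1 to CCND2 was 0.210, 0.198 and 0.184 in 60 min 4sU RNA, 4sU 30 min and input, and the enrichment of CCND1 over that of CCND2 was 1.08-fold at 30 min (0.866 to 1.34) and 1.14-fold at 60 min (0.865 to 1.502). These ratios between genes of one library need no scaling.

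CCNE1, which drives entry into S phase with CDK2, had 195 counts (31.7 CPM) in 60 min 4sU RNA, 646 (66.9 CPM) in 30 min 4sU RNA and 1100 (33.6 CPM) in input. Only the 30 min library stood out. The 30 min ratio of 1.99 (1.81 to 2.20) was just under the 2-fold needed for a call, and the 60 min ratio was 0.944 (0.807 to 1.10). Its paralogue CCNE2 had 103 counts (16.7 CPM), 267 (27.7 CPM) and 609 (18.6 CPM) in the same order, with ratios to input of 0.901 at 60 min (0.724 to 1.11) and 1.49 at 30 min (1.28 to 1.72). The enrichment of CCNE1 over that of CCNE2 was 1.34-fold at 30 min (1.12 to 1.60) and 1.05-fold at 60 min (0.804 to 1.37). The E-type cyclins thus differed beyond counting error at 30 min, and at 60 min the interval included 1.

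CCNA2, the cyclin of S phase and G2, had 874 counts (142.1 CPM) in 60 min 4sU RNA, 1842 (190.8 CPM) in 30 min 4sU RNA and 6429 (196.2 CPM) in input. The 30 min library did not differ from the input beyond counting error, at a ratio of 0.973 (0.923 to 1.02), and the 60 min ratio was 0.724 (0.674 to 0.777). CCNB1, the mitotic cyclin and the most abundant of the 6 in every library, had 1687 counts (274.2 CPM), 4095 (424.3 CPM) and 13688 (417.7 CPM) in the same order. Its ratio was 0.656 at 60 min (0.624 to 0.691) and 1.02 at 30 min (0.981 to 1.05). The enrichment of CCNA2 over that of CCNB1 was 0.958-fold at 30 min (0.899 to 1.02) and 1.10-fold at 60 min (1.01 to 1.20). Under the other scalings the 30 min ratio reached 0.717 for CCNA2 and 0.748 for CCNB1. In these bulk libraries fewer cells holding an mRNA and less of it per cell cannot be told apart.

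**Figure D2:**
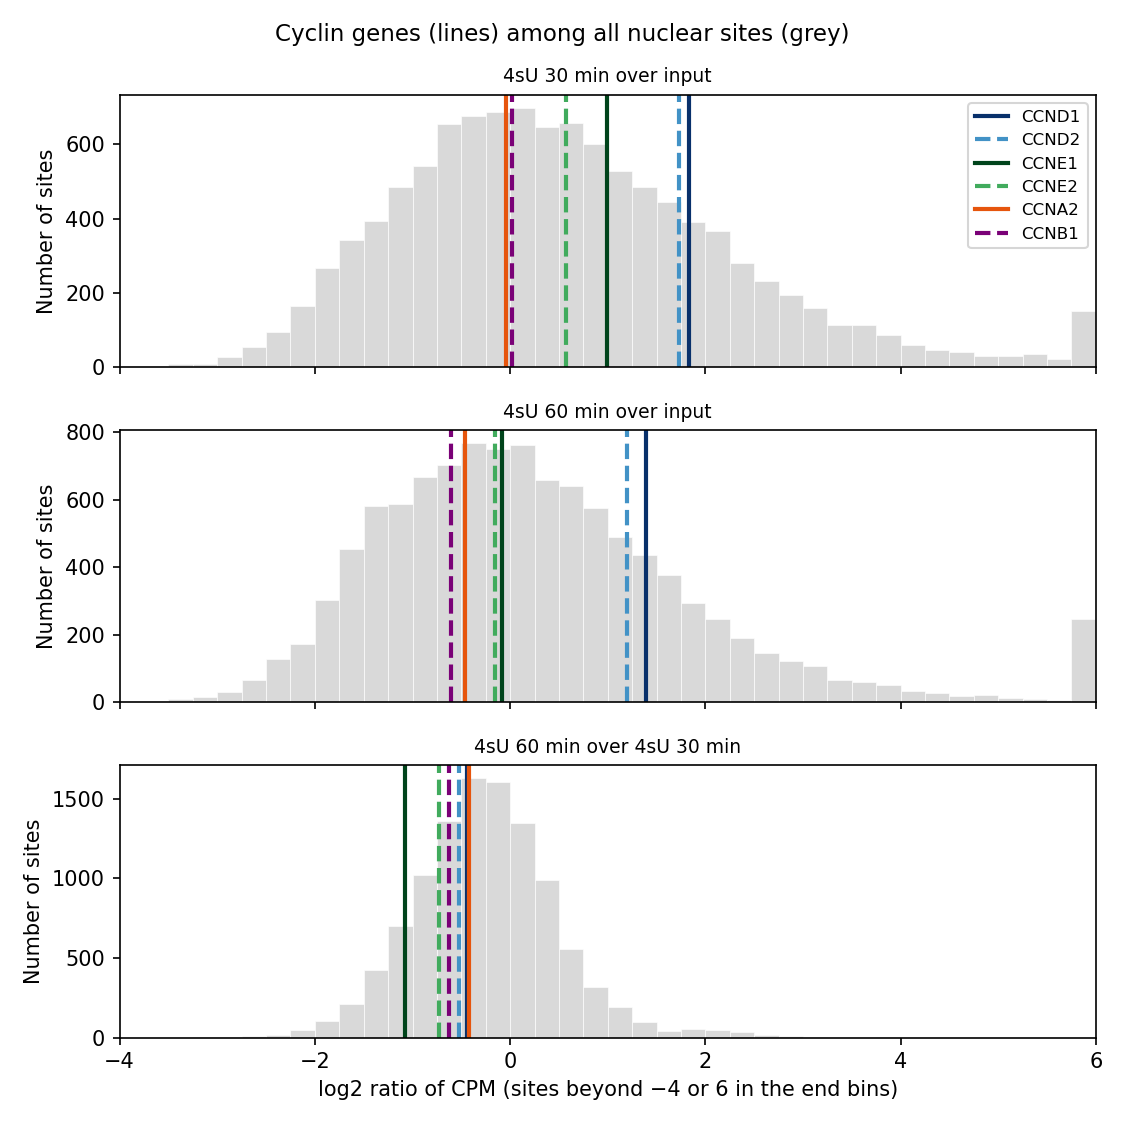
Log2 ratios of CPM for the 6 cyclin genes (vertical lines) over the number of nuclear sites per 0.25 of log2 ratio (grey; 10843 sites in each panel). The D-type genes lie in the right part of both distributions against input, and all 6 genes lie left of 0 for 60 over 30 min.

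The genes were also set against each other, which needs no scaling. All 15 pairs were computed at each time, without adjustment for their number. The enrichment of CCND2 over that of CCNB1 was 3.26-fold at 30 min (2.97 to 3.58) and 3.50-fold at 60 min (3.09 to 3.95). CCND1 over CCNA2 gave 3.67-fold (2.98 to 4.51) at 30 min and 3.62-fold (2.78 to 4.69) at 60 min. Both pairs are among the widest of the 15. CCND1 over CCNE1 was narrower, at 1.79-fold (1.43 to 2.24) at 30 min and 2.78-fold (2.06 to 3.73) at 60 min. Of the 15 intervals, 13 excluded 1 at 30 min and 12 at 60 min, and the pairs share genes.

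The D-type genes accordingly made up more of the cyclin ends in new RNA. They held 16.4% of the counts of the 6 genes in 60 min 4sU RNA (15.2 to 17.6), 15.5% in 30 min 4sU RNA (14.7 to 16.3) and 5.49% in input (5.21 to 5.80). The E-type genes held 8.72%, 11.3% and 7.40% in the same order. CCNB1 held 49.4%, 50.5% and 59.3%, and CCNA2 held 25.6%, 22.7% and 27.8%.

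CCNB1 and then CCNA2 led the order of levels in all 3 libraries, by 1.93-fold (4sU 60 min), 2.22-fold (4sU 30 min) and 2.13-fold (input) between them. The place of CCND2 differed. In 4sU RNA it followed CCNA2, 2.37-fold above CCNE1 at 60 min (2.00 to 2.82) and 1.62-fold above it at 30 min (1.47 to 1.79), whereas in input CCNE1 was 1.03-fold above CCND2 (0.942 to 1.12), a difference within counting error. CCNE2 and CCND1 were the lowest, and at 60 min they did not differ beyond counting error, at 1.06-fold (0.797 to 1.42). In input CCNE2 was 3.09-fold above CCND1.

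From 30 to 60 min of labelling all 6 genes had lower CPM, with a median log2 ratio of -0.58 beside -0.27 for all sites. CCNE1 alone passed the 2-fold rule, at 0.474 (0.401 to 0.557), or 2.11-fold lower in 60 min 4sU RNA than in 30 min 4sU RNA. The other five ratios ran between 0.605 for CCNE2 and 0.744 for CCNA2. Over all sites 14.0% were called lower and 4.58% higher in this comparison. With median-of-ratios or TMM scaling no cyclin gene was called, and the CCNE1 ratio reached 0.583. Without any scaling, the change of CCNE1 relative to CCNB1 was 0.733 (0.615 to 0.870) and relative to CCNA2 0.636 (0.529 to 0.763). For CCNE2 relative to CCNB1 it was 0.936 (0.733 to 1.19), with an interval that included 1. Set directly against each other, CCNE1 relative to CCNE2 was 0.782 (0.588 to 1.045), so the E-type genes did not differ beyond counting error in this change.

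The genes differed in how many 3′ ends they used. Sites with at least 20 counts and 5% of a gene's counts over the 3 libraries numbered 13, and CCNE1 had only 1 of them, at chr19:30315214, with 98.4% of its counts. CCND1 had 3, at chr11:69466376, 69468721 and 69469241 on the plus strand, and the last held 68.5% of its counts. CCND2 had 2, at chr12:4409372 and 4414516 on the plus strand, 5144 nt apart. CCNE2 had 2, at chr8:95894195 and 95892455 on the minus strand, 1740 nt apart. CCNA2 had 2, at chr4:122738525 and 122737600 on the minus strand, 925 nt apart. CCNB1 had 3, at chr5:68473523, 68473581 and 68473872 on the plus strand, within 349 nt.

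**Figure D3:**
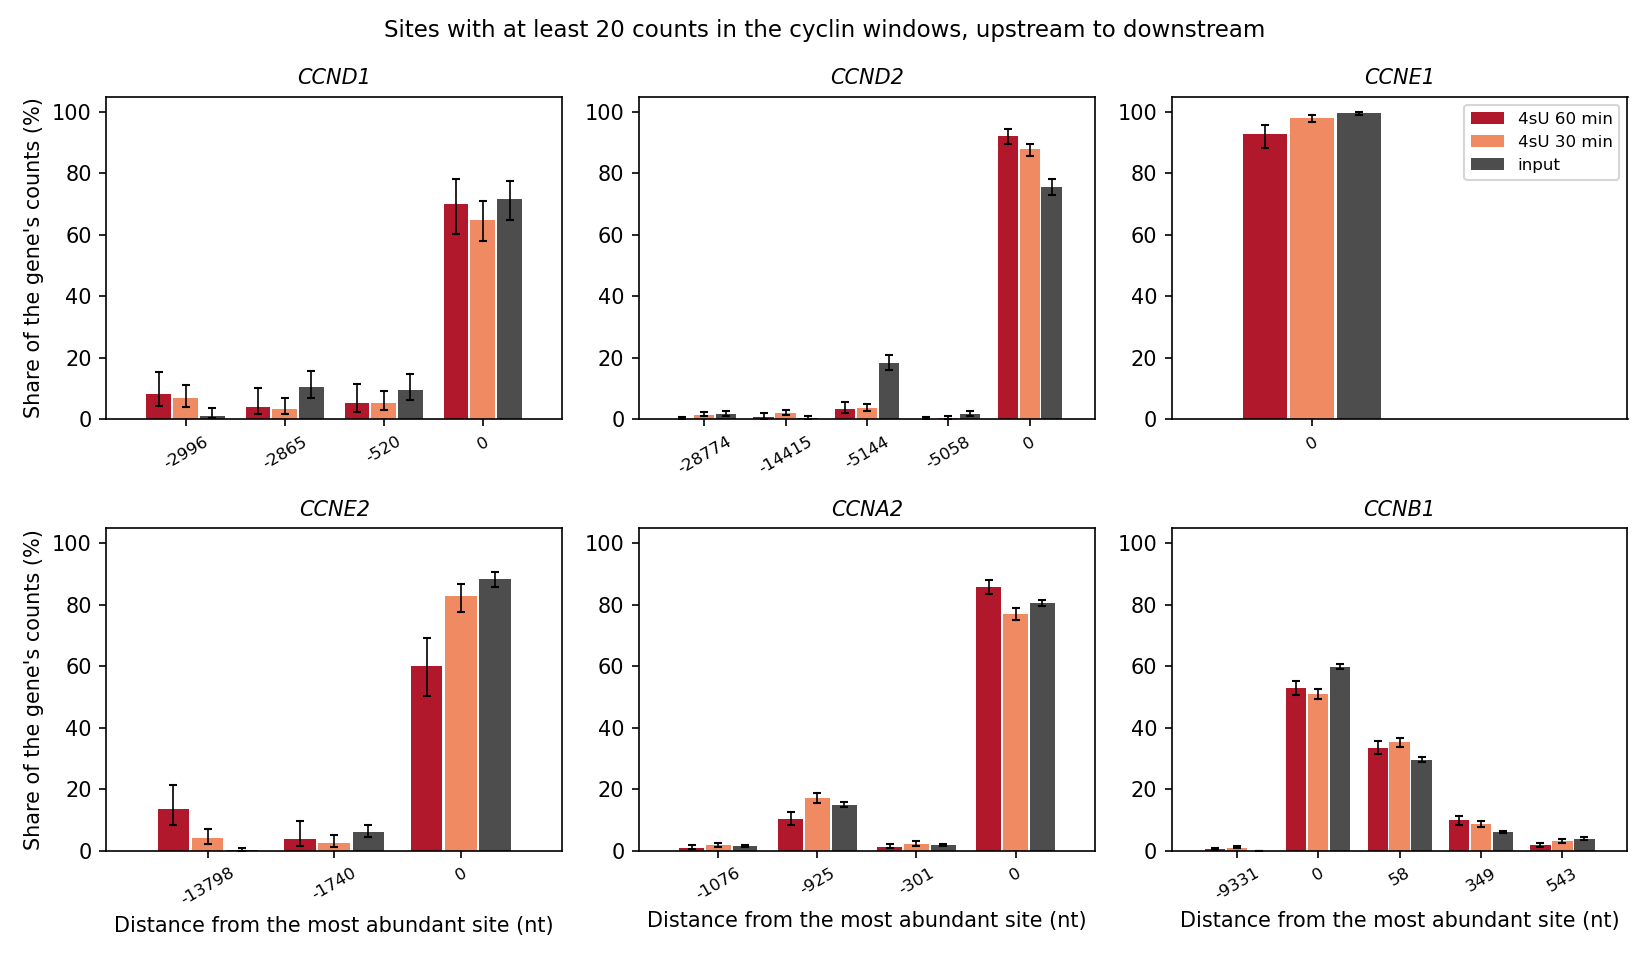
Share of each gene's counts (%) at its sites with at least 20 counts, by distance from the most abundant site (nt, negative is upstream), for 4sU 60 min, 4sU 30 min and input, with Wilson 95% intervals. The upstream end of CCND2 at -5144 nt holds 18.4% of the input counts and under 4% of the counts in the 4sU libraries.

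CCND2 showed the clearest difference between its ends. The upstream end at chr12:4409372 had 16 counts (2.60 CPM) in 60 min 4sU RNA, 39 (4.04 CPM) in 30 min 4sU RNA and 197 (6.01 CPM) in input. The downstream end at chr12:4414516 had 426 (69.2 CPM), 918 (95.1 CPM) and 811 (24.7 CPM) in the same order. The ends thus moved in opposite directions relative to input, with 30 min ratios of 0.672 (0.464 to 0.951) upstream and 3.84 (3.49 to 4.23) downstream. The downstream end held 96.4% of the counts at both ends in 60 min 4sU RNA, 95.9% in 30 min 4sU RNA and 80.5% in input. The share was 15.9 points above input at 60 min (12.7 to 18.8) and 15.5 points above it at 30 min (12.7 to 18.2). With merging within 10 nt the difference was smaller, at 11.2 points at 60 min and 10.9 points at 30 min, outside these intervals.

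Among the 5 genes with at least 2 listed sites, the share at the outermost downstream one was at least 10 points higher than in input, with a Newcombe interval excluding 0, in 2 at 30 min and 1 at 60 min, and lower in 0 at either time. Over all groups of neighbouring ends, 18.0% were higher at 30 min and 19.3% at 60 min, while 10.5% and 10.8% were lower. Groups were chains of sites with gaps of at most 2000 nt, so they are not matched to the span of these genes. CCND1 was the second gene at 30 min, with 88.3% (68 of 77 counts) in 60 min 4sU RNA, 88.2% (134 of 152) in 30 min 4sU RNA and 77.9% (141 of 181) in input. Its difference from input was 10.3 points at 30 min (2.09 to 18.1) and 10.4 points at 60 min (-0.149 to 18.9), and with sites down to 1% of the gene it was 3.67 and 2.95 points, so the call depended on the sites included. Outside the listed sites lay 20.6% of CCND1 counts in 60 min 4sU RNA, 26.6% in 30 min 4sU RNA and 8.12% in input. Of all CCND1 counts, the downstream end held 70.1%, 64.7% and 71.6% in the same order, with overlapping intervals. By that measure neither 4sU library lay above input.

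**Figure D4:**
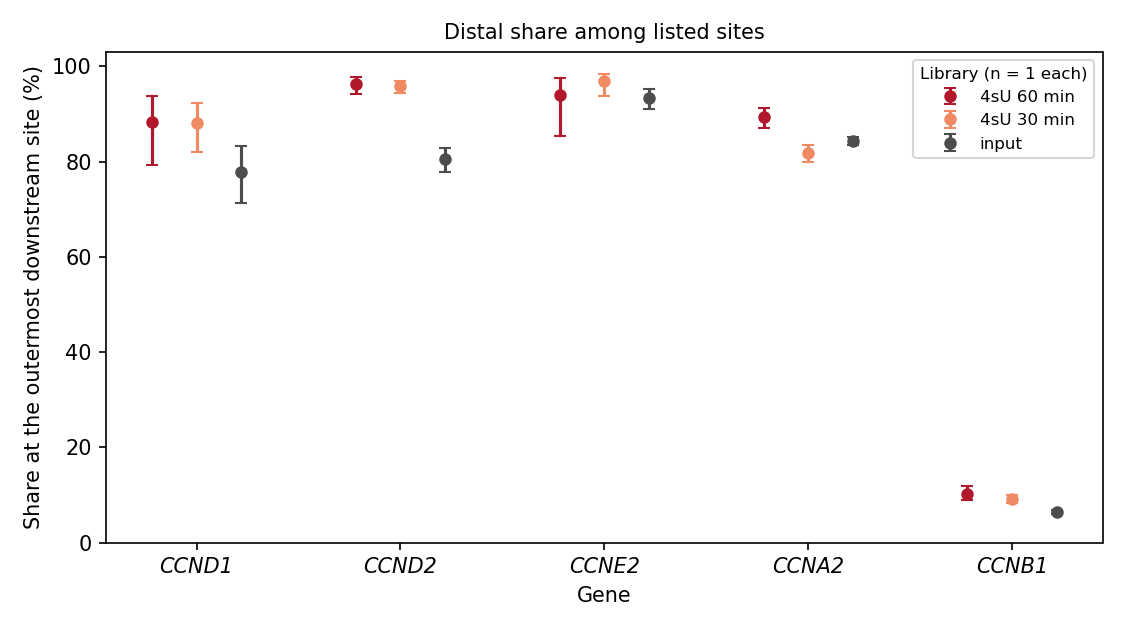
Share (%) of listed-site counts at the outermost downstream site of the 5 cyclin genes with at least 2 listed sites, with Wilson 95% intervals, in 60 min 4sU RNA, 4sU 30 min and input. CCND2 has the widest gap between 4sU and input, at 96.4% and 95.9% against 80.5%.

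CCNA2 had a downstream share below the input at 30 min and above it at 60 min, neither by the 10 points needed for a call. Its downstream end at chr4:122737600 had 751 counts (122.1 CPM) in 60 min 4sU RNA, 1418 (146.9 CPM) in 30 min 4sU RNA and 5193 (158.5 CPM) in input. The upstream end at chr4:122738525 had 90 (14.6 CPM), 316 (32.7 CPM) and 962 (29.4 CPM). The downstream share was 89.3%, 81.8% and 84.4%, or 4.93 points above input at 60 min (2.49 to 7.05) and -2.59 points from input at 30 min (-4.68 to -0.617). It was 7.52 points higher at 60 than at 30 min (4.66 to 10.2), also short of a call. No cyclin gene passed that rule from 30 to 60 min, against 8.36% of all groups higher and 7.87% lower.

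CCNB1 had its counts in closely spaced ends. The main end at chr5:68473523 had 894 counts (145.3 CPM) in 60 min 4sU RNA, 2091 (216.6 CPM) in 30 min 4sU RNA and 8189 (249.9 CPM) in input, or 53.0%, 51.1% and 59.8% of the gene. The end 58 nt downstream had 567 (92.2 CPM), 1448 (150.0 CPM) and 4064 (124.0 CPM), or 33.6%, 35.4% and 29.7% of the gene. The end 349 nt downstream had 167, 355 and 830 counts, or 9.90%, 8.67% and 6.06%. The upstream main end thus took less of the gene in both 4sU libraries than in input, and the ends 58 and 349 nt downstream took more. Another end 543 nt downstream, at chr5:68474066, which fell below the 5% limit, had the opposite pattern, with 32, 129 and 549 counts or 1.90%, 3.15% and 4.01%.

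CCNE2 and CCND1 had minor ends too shallow to compare. The upstream end of CCNE2 at chr8:95894195 had 4 counts in 60 min 4sU RNA, 7 in 30 min 4sU RNA and 38 in input, and the downstream share was 93.9%, 96.9% and 93.4%, with intervals of the difference from input that included 0 at both times. This value depended on how sites were formed: the difference from input was 21.8 points at 60 min and 11.5 points at 30 min with merging within 10 nt, and -15.8 and -0.784 points with sites down to 1% of the gene. At 60 min the main CCNE2 end at chr8:95892455 had 62 counts, or 60.2% of the gene (50.5 to 69.1), against 221 counts, or 82.8% (77.8 to 86.8), at 30 min and 539, or 88.5% (85.7 to 90.8), in input. Of the CCNE2 counts, 29 in 60 min 4sU RNA, 29 in 30 min 4sU RNA and 12 in input lay over 1000 nt upstream of both listed ends.

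Counts far upstream in the windows were a larger share of the 6 genes' counts in new RNA than in input. Counts more than 1000 nt upstream of the most upstream listed site made up 2.63% of the counts of the 6 genes in 60 min 4sU RNA (90 of 3418), 2.25% in 30 min RNA (182 of 8102) and 0.381% in input (88 of 23095). This measure was chosen after the values were seen, and it was not computed for other genes. For CCNE2 the share was 28.2% (29 of 103 counts) in 60 min RNA, 10.9% (29 of 267) in 30 min RNA and 1.97% (12 of 609) in input. For CCND1 it was 3.09% (3 of 97), 2.42% (5 of 207) and 1.02% (2 of 197) in the same order, with intervals that overlapped. For CCNB1 it was 1.36%, 1.42% and 0.248%. For CCND2 it was 3.46%, 6.41% and 3.17%, and its 60 min interval (2.14 to 5.55) overlapped that of input (2.28 to 4.40). The interval lay apart from that of input at both times for CCNE1, CCNE2, CCNA2 and CCNB1, and for CCND2 at 30 min only. No share over all genes is at hand to set beside this. The listed sites were also set by counts pooled over the libraries, of which input held the most. An end used mainly in 4sU RNA could thus fall outside the list, which tilts this measure towards new RNA. The share over the 6 genes together also depends on the weight of each gene, which differed between libraries.

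**Figure D5:**
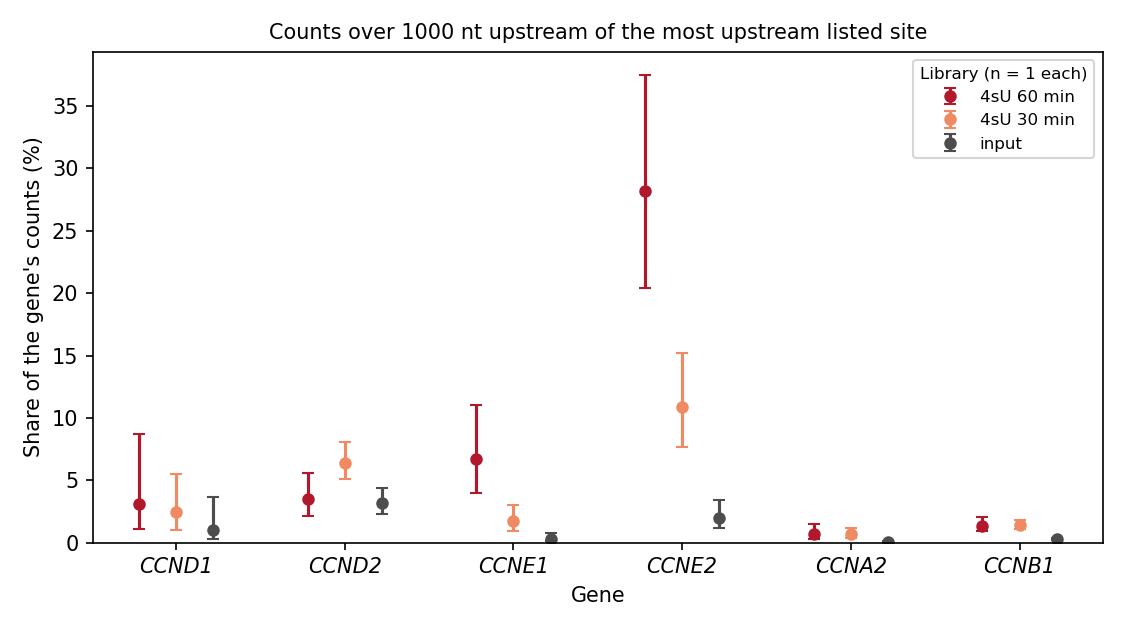
Share (%) of each gene's counts more than 1000 nt upstream of its most upstream listed site, with Wilson 95% intervals, in 60 min 4sU RNA, 4sU 30 min and input. CCNE2 reaches 28.2% at 60 min, against 1.97% in input.

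Many of these upstream counts sat at single sites, named here after their values were seen. Except for the last one given here, they reached the minimum of 20 counts mainly through the 4sU libraries. Counts are therefore given as a description and no ratio. The site at chr5:68464192 in the CCNB1 window, at -9331 nt from the main end, had 10 counts in 60 min 4sU RNA, 44 in 30 min 4sU RNA and 8 in input. The site at chr12:4400101 in the CCND2 window had 3, 20 and 4 counts in the same order. The site at chr8:95906253 in the CCNE2 window had 14, 11 and 1 counts. Last, the site at chr12:4385742 in the CCND2 window had 0, 16 and 18 counts, so the input held most of the raw counts. Scaled to depth, this site was highest in 30 min 4sU RNA, at 1.66 CPM against 0.549 CPM in input. All lie below a mean of 10 CPM, and priming within transcripts was not tested.

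By single site, CCND2 at chr12:4414516 was the one end called higher than in input among the 9 with a mean of at least 10 CPM. It was called at both labelling times, so 1 of 9 stands beside 35.3% of all sites at 30 min and 27.3% at 60 min. The main end of CCND1 had a mean of 9.75 CPM and so fell just under this filter. At 60 min 2 sites were called lower than in input, the upstream CCNA2 end at chr4:122738525, at 0.498 (0.397 to 0.619), and the most downstream CCNB1 end at chr5:68474066, at 0.310 (0.210 to 0.444), beside 21.8% of all sites. From 30 to 60 min 4 of the 9 sites were called lower, beside 14.0% of all sites, and with median-of-ratios scaling or TMM 1 was. They were these same 2 at 0.447 and 0.389, the CCNE1 end at 0.449 and the main CCNE2 end at 0.440.

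Within single sites the cyclins ranged from sharp to broad. The main end of CCND2 had an SD of positions of 1.06 nt in 60 min 4sU RNA, 1.07 nt in 30 min 4sU RNA and 1.10 nt in input, and that of CCNA2 had 1.57, 1.31 and 1.20 nt. The single end of CCNE1 was broader, at 2.72, 2.41 and 2.43 nt, and its most used position held 22.7%, 25.4% and 20.2% of the counts. The main end of CCNE2 was the broadest of the main ends, at 7.63, 9.03 and 9.10 nt. It spanned chr8:95892432 to 95892475, and merging within 24 nt can join neighbouring ends. The SD is thus that of the merged site, and it was not computed with narrower merging.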

How the data were processed

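Each deposited table lists, for 1 library, genomic positions with strand and the raw count of reads ending there, without normalization by the authors, as the whole-number values show. Per the labels' protocols, the 4sU libraries skipped the first poly(A) selection of 2P-seq, and the sources do not say whether the input did. The submitters' processing notes name cutadapt and Bowtie. Versions, the genome build and the treatment of multiply mapping reads are not given in those notes. Positions were taken as 1-based ends, on the strand of the RNA.

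Window counts were summed, and sites were merged within 24 nt of a local maximum. Scaling was to CPM of nuclear counts. Ratios carry exact 95% intervals of 2 Poisson counts, differences in enrichment between genes the exact conditional interval of an odds ratio, and shares Wilson intervals. A count of 0 was set to a floor of 3 counts per library. All sites were computed with the same script (Python 3.11.15, scipy 1.17.1), tested on simulated data, and edgeR 4.0.16 gave TMM factors. The named items are the 6 genes and their sites with at least 20 counts and 5% of the gene's counts. Members, lists and motifs were chosen with earlier results of these data known. Alternatives were other scalings, folds, filters, merging rules and windows.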

Additional observations from a re-analysis of the deposited data

Results flagged for a closer look

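Counts on the opposite strand of the windows enter no comparison above. They passed the 2-fold rule upwards in the CCND1 window at 60 min and in the CCNB1 window at both times, and downwards in the CCNE2 and CCNA2 windows at 60 min, in each case against input. In the CCND1 window the opposite strand had 34 counts in 60 min 4sU RNA, 18 in 30 min 4sU RNA and 70 in input, or 5.53, 1.86 and 2.14 CPM, a ratio to input of 2.59 at 60 min (1.66 to 3.95) and 0.873 at 30 min (0.489 to 1.48). In the CCNB1 window it had 10 counts in 60 min 4sU RNA, 6 in 30 min 4sU RNA and 0 in input. With the input put at 3 counts per library, the ratio to input was 17.8 at 60 min and 6.79 at 30 min. The intervals had lower limits of 11.9 at 60 min and 4.00 at 30 min, and no upper limit is given. The 60 min ratio was 0.444 for the CCNE2 window (0.337 to 0.578) and 0.496 for the CCNA2 window (0.433 to 0.566), and both held more counts than the first 2.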

How the results depend on the processing

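The 2 D-type genes called higher than in input at 30 min were 2 under every scaling, site and window setting tried, and 3 genes were called with a fold of 1.5. At 60 min the count was 2 higher and 0 lower, except with mitochondrial counts in the total (0 higher, 1 lower, a count of 1) and with a fold of 1.5 (2 higher, 1 lower). From 30 to 60 min, 1 gene was called, against 0 with median-of-ratios scaling and with TMM, 3 with a fold of 1.5 and 2 with the most abundant site only. Called sites at 30 min were 1, against 2 with a fold of 1.5 or a mean CPM of at least 5 and 7 with no filter on mean CPM. At 60 min they were 3, against 5 with a fold of 1.5 and 10 with no filter, and from 30 to 60 min 4, against 1 with median-of-ratios scaling or TMM and 9 with no filter. Shifted distal shares at 30 min were 2, against 1 with sites of at least 1% and 0 with sites of at least 10%. With merging within 10 nt they were also 2, but CCND1 (9.67 points) fell out and CCNE2 (11.5 points) came in. At 60 min they were 1, against 3 (all higher) with merging within 10 nt, 2 (1 higher, 1 lower) with sites of at least 1% and 0 with sites of at least 10%. From 30 to 60 min they were 0, against 1 lower (CCNE2, -15.0 points) with sites of at least 1% and 1 higher (CCNA2, 7.52 points) with a change of at least 5 points. The limit of 10% leaves 2 genes to compare. No gene ratio or share change called under the main settings turned its sign under the other settings, which all take shares among listed sites. Of all CCND1 counts, however, the downstream end held 64.7% at 30 min and 71.6% in input, with overlapping intervals. CCNE2, not called under the main settings, had a 60 min share change of 21.8 points with merging within 10 nt and -15.8 points with sites of at least 1%. Of the gene ratios recomputed with other scalings, sites or windows, 68 stayed within the interval of the main value and 40 left it. No paired analysis was possible because each group has 1 library. CCND1, CCNE2 and the upstream ends rest on few counts.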

Other observations

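Just beyond the downstream edge of the CCNA2 window, the next 5000 nt on the same strand held 137 counts in 60 min 4sU RNA, 176 in 30 min 4sU RNA and 570 in input, or 22.3, 18.2 and 17.4 CPM, and the input counts equal 8.87% of those in the window. Beyond the other windows the same stretch held 0 to 6 counts per library. The opposite strand of the CCNA2 window held 241, 453 and 2588 counts in the same order and that of CCNE2 61, 151 and 731. In the GRCh38.p14 gene table, EXOSC9 and BBS7 lie within 5000 nt of CCNA2, and INTS8 and NDUFAF6 lie within 5000 nt of CCNE2. The counts were not assigned to them.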
